A study of Mus musculus with 9 samples.

Results

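Complement genes that connective tissue cells are known to transcribe were examined in mouse embryonic fibroblasts (MEFs). The list named 7 genes (C3, C4b, C1ra, Cfb, Cfd, Serping1 and C2) and a probe set belonged to it where the authors' deposited annotation gave 1 of these symbols. This found 7 of the 45101 probe sets on the array, for 5 of the 7 genes. No probe set carried the symbol or gene identifier of C1ra or Cfb, and these genes were not analysed here. C3, C4b, Cfd and Serping1 had 1 probe set each and C2 had 3. The brightest probe set, with the highest mean over all arrays, stood for a gene, as it did for each of the 20672 genes tested.

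All 9 samples were MEFs grown in DMEM. In shGFP, the control (n = 3), the short hairpin RNA was aimed at GFP, which mouse cells do not make. In shFoxk1 (n = 3) it was aimed at the forkhead transcription factor Foxk1, and in shFoxk1+Foxk1, called rescue here (n = 3), that hairpin was combined with added Foxk1. The labels do not give the strain, the age of the embryos, the vectors or whether replicates were separate cultures, so p-values reflect only how far these samples spread, and that spread may be technical. Every group carries a hairpin, and cells without one were not analysed here.

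Complement is a cascade of plasma proteins that tags microbes and damaged cells. C1r and C1s are the proteases of the first complex, in which C1s cleaves C4 and C2 to build the enzyme that splits C3. In the alternative route factor D cleaves factor B, which becomes part of a second such enzyme. C1 inhibitor, the product of Serping1, blocks C1r and C1s. The liver makes most of the plasma protein, and fibroblasts are a known local source, in which interleukin 1, interleukin 6, tumour necrosis factor and interferon gamma raise transcription of several of these genes through NF-kB, C/EBP and STAT factors.

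The labels were checked first. Foxk1 stood at a log2 level of 8.94 ± 0.05 (SD, n = 3) in shGFP, 7.82 ± 0.12 in shFoxk1 and 7.86 ± 0.16 in rescue. It fell by 1.12 in shFoxk1 (SE 0.08, limma adjusted p = 5.18e-05), to 46.0% of the control. Averaging all Foxk1 probe sets gave -0.49 (limma adjusted p = 0.000233). The rescue arrays differed from shFoxk1 by 0.04 (adjusted p = 0.869), which turned to -0.05 without rescue replicate 1, so this probe set did not show the Foxk1 added back. The positions of its probes were not given, so whether it could do so cannot be told. The label of the cells held against their markers: 9 of 10 fibroblast markers lay above 5.62, the 95th percentile of 44 olfactory receptor probe sets, whose genes fibroblasts are not known to use and which serve here as a reference for unspecific signal (median 4.42). The mean log2 level of the 10 markers ranged from 11.23 to 11.24 in shGFP, from 11.21 to 11.24 in shFoxk1 and from 11.29 to 11.36 in rescue. Passing 5.62 does not by itself show expression, as 4 of 7 hepatocyte and 4 of 7 epithelial markers also did. Their mean log2 levels in shGFP were 5.51 to 5.57 and 5.71 to 5.72. The highest of them, Epcam, had a mean of 7.02 over 9 arrays, near the levels of C3, C4b and C2 given below. Across genes, arrays of a group correlated at 0.998 to 0.999, and the medians of the 9 arrays ranged from 5.92 to 5.95.

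None of the 5 measured complement genes passed the test in any of the 3 comparisons (limma, Benjamini-Hochberg over all 20672 genes). In shFoxk1 against shGFP 0 of 5 were called, against 4.24% of all genes. The counts were 0 of 5 in rescue against shFoxk1, with 0.953% of all genes called, and 0 of 5 in rescue against shGFP, with 5.04% called. With 5 genes, 0 calls lies near these backgrounds. In each comparison 1 of the 5 had an unadjusted p under 0.05, beside 3473, 2853 and 3716 of the 20672 genes in the same order. The 15 differences were small as well as uncalled. Their 95% intervals all lay between 0.806-fold and 1.33-fold, so larger changes of these probe sets lay outside the intervals. The 3 comparisons share arrays, and their values are therefore given side by side and not as independent evidence.

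**Figure D1:**
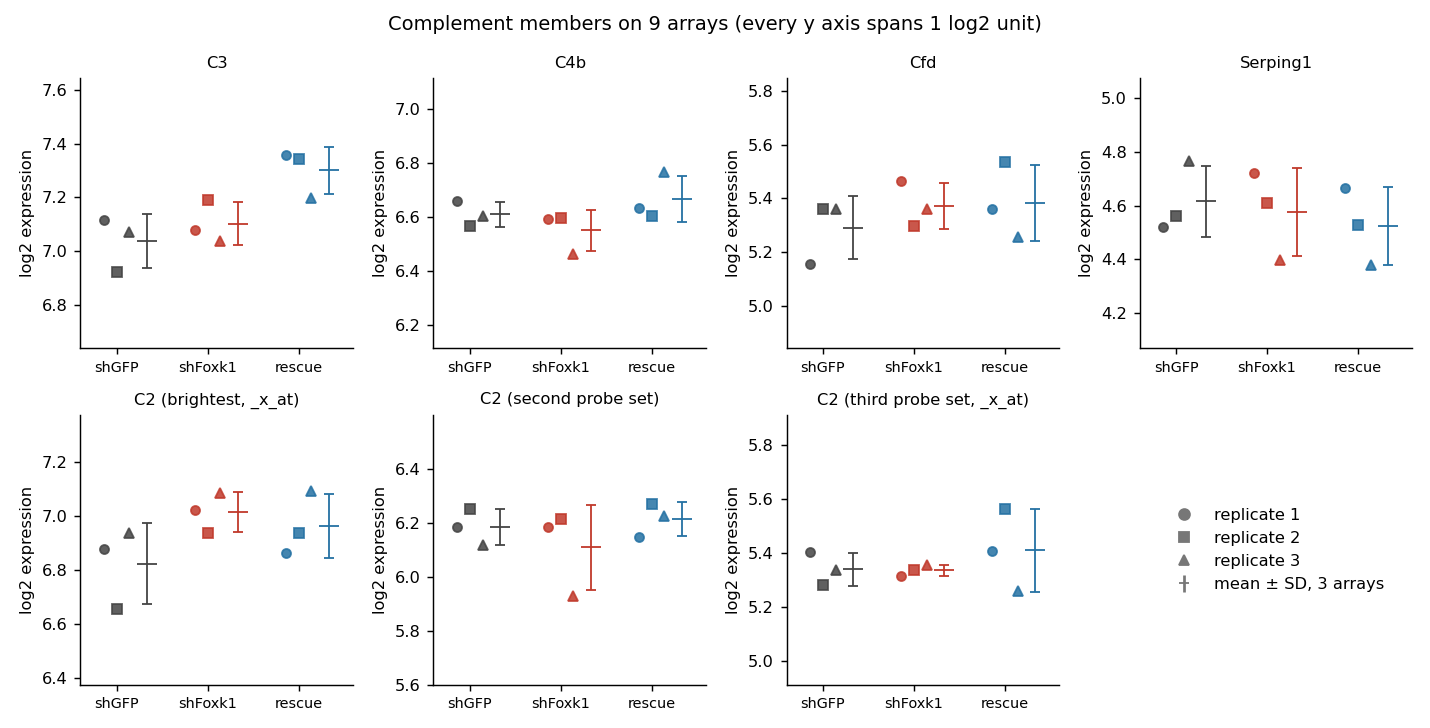
Log2 level of each complement probe set (y axis, every panel spanning 1 log2 unit) on the 9 arrays, by group (x axis). Symbols are replicates 1 to 3 and crosses with bars are the mean ± SD of 3 arrays. The groups overlap in most panels, and the 3 rescue arrays of C3, between 7.20 and 7.36, lie above the other 6.

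C3 encodes the central protein of the cascade, on which all routes converge. The 300-base window around its start in the RefSeq promoter table (GRCm38.p6, chr17:57228087-57228386, minus strand, 250 bases before the start to 50 after it) is printed because C3 came nearest to a call. Capitals mark the match to the C/EBP motif that begins 45 bases before the start.
C3 promoter: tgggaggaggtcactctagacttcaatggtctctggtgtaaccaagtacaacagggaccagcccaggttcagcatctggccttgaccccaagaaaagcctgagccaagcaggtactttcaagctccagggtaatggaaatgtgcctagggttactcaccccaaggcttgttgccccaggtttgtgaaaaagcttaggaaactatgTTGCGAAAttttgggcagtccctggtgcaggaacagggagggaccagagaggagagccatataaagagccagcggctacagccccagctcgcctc
The window was searched on both strands for 4 motifs. TTGCNNAA, a C/EBP site, matched at 1 place; the forkhead core TAAACA, the STAT element TTCNNNGAA and the NF-kB element GGGANNTTCC matched at 0. Of 32851 windows of this length, 10.8% held the C/EBP motif, 13.44% the forkhead core, 8.298% the STAT element and 1.467% the NF-kB element. No motif shares letters with another match in the C3 window. A match describes letters only and says nothing of binding. The search was chosen after the data were seen. The table also held a window for Cfd, in which none of the 4 motifs was found, and for the unmeasured C1ra. The C1ra window held 1 match each to the forkhead core, the C/EBP motif and the STAT element, and 0 to the NF-kB element.

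The mean of C3 over 9 arrays, 7.15, lay at the 55.6th percentile of all genes, and 0% of the olfactory receptor probe sets reached it. Probe sets differ in brightness, so such a rank places a signal and not an amount of transcript. Its log2 levels were 7.11, 6.92 and 7.07 on the shGFP arrays, 7.08, 7.19 and 7.04 on the shFoxk1 arrays and 7.36, 7.34 and 7.20 on the rescue arrays. The shGFP and shFoxk1 arrays overlapped, and every rescue array lay above every array of both other groups. The means were 7.04 ± 0.10, 7.10 ± 0.08 and 7.30 ± 0.09 (SD, n = 3). The difference of shFoxk1 from shGFP was 0.07 (SE 0.07, 95% interval -0.09 to 0.22, limma adjusted p = 0.705). Rescue minus shFoxk1 was 0.20 (SE 0.07, interval 0.05 to 0.35, 1.15-fold, limma adjusted p = 0.249). Rescue minus shGFP was 0.26 (SE 0.07, interval 0.11 to 0.41, 1.20-fold with an interval of 1.08 to 1.33, adjusted p = 0.0549), just short of the threshold of 0.05.

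Among the 5 genes, C3 in this comparison was the only result that any of the 18 alternatives called. It passed when genes below the median level were left out (limma adjusted p = 0.0193), when a gene's probe sets were averaged (0.0466) and with trend and robust variances (0.0391). The difference of C3 was 0.26 in all 3. C3 has 1 probe set, so averaging left its own values as they were and moved its adjusted p only through other genes. Over the 18 alternatives its adjusted p ranged from 0.0193 to 0.185 and its size from 0.21 to 0.31. The mean level of the fibroblast markers was higher on each rescue array than on each array of the other groups, as given above. The markers did not all share this: in rescue against shGFP 2 of 10 rose, 0 fell and 8 did not pass, beside 5.04% of all genes called. Their differences ran from -0.17 to 0.40, with a median of 0.05. The part of these markers in the C3 difference was not tested. Across the 9 arrays C3 covered 0.43 log2 units, a range that 16.9% of genes equalled or passed.

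C4b and C2 act one step earlier, as the parts of the C3-splitting enzyme of the classical and lectin routes. C4b gave log2 levels of 6.66, 6.57 and 6.60 in shGFP, 6.59, 6.60 and 6.46 in shFoxk1 and 6.64, 6.60 and 6.77 in rescue. The lowest array was shFoxk1 replicate 3 and the highest rescue replicate 3, while the shGFP arrays lay among the others. Its means were 6.61 ± 0.05, 6.55 ± 0.08 and 6.67 ± 0.09. The difference was -0.06 for shFoxk1 minus shGFP (interval -0.19 to 0.07, limma adjusted p = 0.692) and 0.06 for rescue minus shGFP (interval -0.07 to 0.19, 0.674). For rescue minus shFoxk1 it was 0.12 (interval -0.01 to 0.25, 0.417), with every rescue array above every shFoxk1 array. The nearest of these arrays read 6.603 in rescue and 6.596 in shFoxk1. Mice carry a near-identical copy, C4a, with no probe set of its own symbol here, and the probe sequences were not given, so which of the pair this probe set reads is uncertain.

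The brightest C2 probe set, of a kind (_x_at) whose probes can match other transcripts, read 6.88, 6.66 and 6.94 in shGFP, 7.02, 6.94 and 7.09 in shFoxk1 and 6.86, 6.94 and 7.10 in rescue. The shGFP arrays tended lower, but shGFP replicate 3 and shFoxk1 replicate 2 met at 6.94, so the groups overlapped. Its difference of shFoxk1 from shGFP was 0.19 (SE 0.08, interval 0.01 to 0.38, limma adjusted p = 0.274). The other C2 probe sets did not share it. The second, at 6.19 ± 0.07, 6.11 ± 0.16 and 6.22 ± 0.06 in shGFP, shFoxk1 and rescue, gave a difference of -0.08 (adjusted p = 0.725, all probe sets tested), and the third, also an _x_at, stood at 5.34 ± 0.06, 5.34 ± 0.02 and 5.41 ± 0.15. The direction for C2 in the knockdown thus depends on the probe set. Rescue minus shFoxk1 was -0.05 on the brightest (adjusted p = 0.824), 0.10 on the second and 0.07 on the third. Rescue minus shGFP was 0.14 on the brightest (interval -0.04 to 0.33, adjusted p = 0.423), 0.03 on the second and 0.07 on the third.

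Cfd encodes factor D, the protease of the alternative route that is also known as adipsin and is abundant in fat cells. Its log2 levels were 5.16, 5.36 and 5.36 in shGFP, 5.46, 5.30 and 5.36 in shFoxk1 and 5.36, 5.53 and 5.26 in rescue. No group stood apart, and 4 arrays from all 3 groups read 5.36. The means were 5.29 ± 0.12, 5.37 ± 0.08 and 5.38 ± 0.14. The differences were 0.08 for shFoxk1 minus shGFP, 0.01 for rescue minus shFoxk1 and 0.09 for rescue minus shGFP, with limma adjusted p of 0.694, 0.970 and 0.620. Of the olfactory receptor probe sets, 9.09% were at least as bright, so a low level of Cfd was hard to tell from unspecific signal. Adipocyte markers were measured beside it: 5 of 9 lay above the olfactory receptors' 95th percentile, and their mean log2 level was 5.66 to 5.75 in shGFP, 5.71 to 5.82 in shFoxk1 and 5.68 to 5.77 in rescue. Adipoq, a fat cell hormone, stood at 3.80 ± 0.08 in shGFP, below the olfactory median, and Lpl, the brightest of the 9, at 7.60 ± 0.05. Of the 9 markers, 1 passed in rescue against shGFP, beside 5.04% of all genes. It was Pparg, 0.28 higher in rescue (limma adjusted p = 0.0470), a call lost under 12 of 17 alternatives. None of the 9 passed in the other comparisons.

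Serping1 encodes C1 inhibitor, the soluble brake on C1r and C1s. Its log2 levels were 4.52, 4.56 and 4.76 in shGFP, 4.72, 4.61 and 4.40 in shFoxk1 and 4.67, 4.53 and 4.38 in rescue. All 3 groups overlapped and spanned a similar range. The means were 4.62 ± 0.13, 4.58 ± 0.16 and 4.52 ± 0.14, and 45.5% of the olfactory receptor probe sets were at least as bright. A level of Serping1 above unspecific signal was therefore not detectable with this probe set, and its differences of -0.04, -0.05 and -0.09 (limma adjusted p = 0.897, 0.848 and 0.694 for shFoxk1 minus shGFP, rescue minus shFoxk1 and rescue minus shGFP) bear on that signal.

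**Figure D2:**
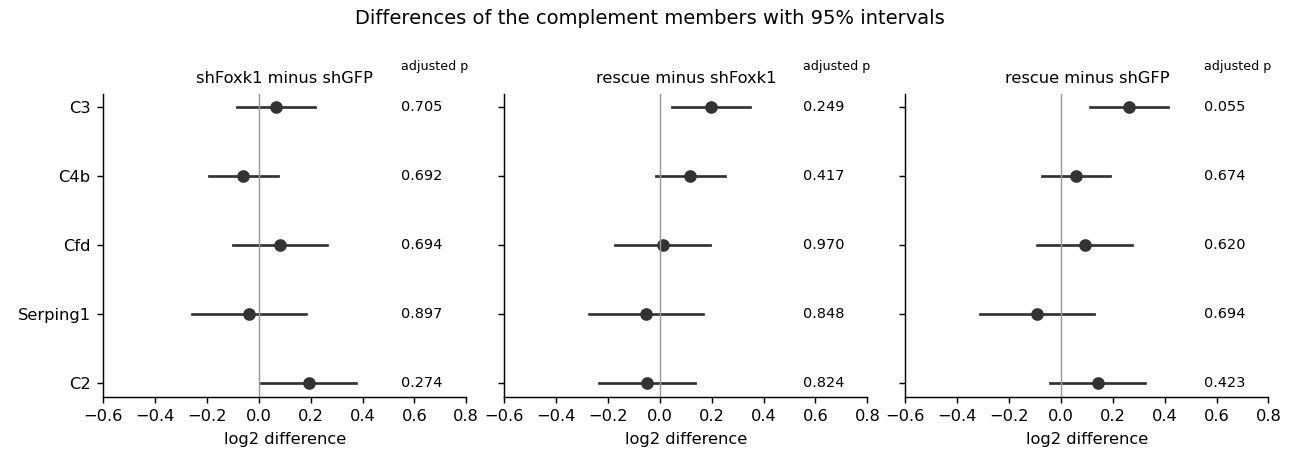
Log2 difference (x axis) of the 5 measured complement genes (y axis) in the 3 comparisons, as points with 95% intervals from the limma fit and the adjusted p beside each. The intervals of C3 lie above 0 in both comparisons of rescue, at 0.20 and 0.26, and 0 of the 15 differences has an adjusted p under 0.05.

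The 5 genes can be read together only by counts. Their median log2 difference was 0.07 in shFoxk1 minus shGFP, 0.01 in rescue minus shFoxk1 and 0.09 in rescue minus shGFP, beside medians over all genes of 0.003, 0.01 and 0.02. All arrays of 1 group lay above all of the other for 0 of 5 in shFoxk1 against shGFP, where 22% of all genes did not overlap. That count was 2 of 5 in rescue against shFoxk1 (C3 and C4b, higher in rescue), with 15.6% of all genes. It was 1 of 5 in rescue against shGFP (C3), with 22.3% of all genes. Both separations of rescue from shFoxk1 were narrow. The lowest rescue array and the highest shFoxk1 array read 7.200 and 7.190 for C3, and 6.603 and 6.596 for C4b. Within groups the SD of the 5 lay between 0.05 and 0.16, and over 9 arrays each covered 0.30 to 0.44 log2 units. In these bulk samples, fewer cells that make a transcript and less of it per cell cannot be told apart.

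C4b, Cfb and C2 lie close together on chromosome 17. Of their nearest neighbours with a probe set in the RefSeq gene order, 0 of 15 passed the test in any comparison. These were 5 before C4b, 5 between C4b and C2, and 5 after C2. Of all genes, 4.24% were called in shFoxk1 against shGFP, 0.953% in rescue against shFoxk1 and 5.04% in rescue against shGFP. A count of 0 of 15 lies near these shares. The nearest to a call was Neu1, which encodes the lysosomal sialidase, at -0.38 in shFoxk1 minus shGFP (limma adjusted p = 0.0537).

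A wider list of 53 complement genes, written from textbook knowledge, set these genes in their pathway, and 45 had a probe set. In shFoxk1 against shGFP 0 rose, 1 fell and 44 did not pass, and 1 of 45 lies near the 2.26% of all genes called lower. The gene that fell was Clu, which encodes clusterin, a secreted chaperone that also restrains the terminal complex. In rescue against shFoxk1 0 of 45 passed, beside 0.953% of all genes. There 7 of 45 had an unadjusted p under 0.05, beside 2853 of the 20672 genes. In rescue against shGFP 1 rose (C1s1) and Clu fell, with 43 not past the test, beside 5.04% of all genes called. The median differences of the list were 0.02, 0.02 and 0.03 in these comparisons.

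**Figure D3:**
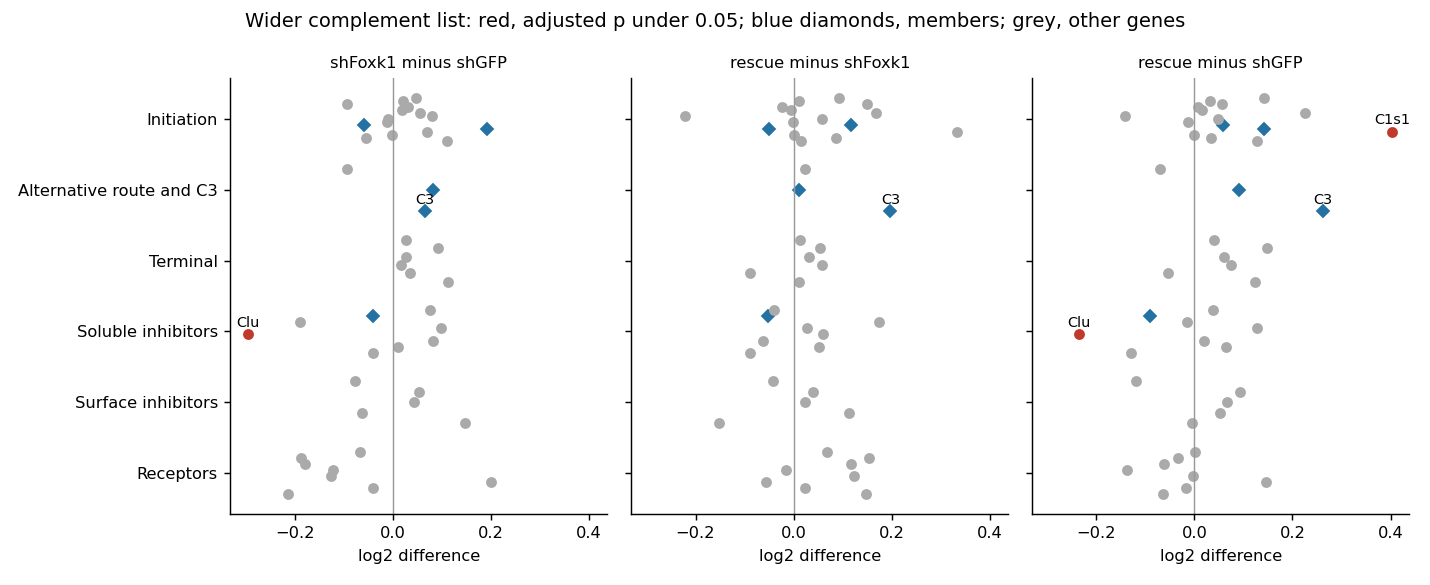
Log2 difference (x axis) of 45 measured complement genes, arranged by role (y axis), in the 3 comparisons. Red points passed at an adjusted p under 0.05, blue diamonds are the 5 measured genes of the short list and grey points are the rest. Most points lie within 0.2 of 0, with Clu at -0.30 and -0.24 and C1s1 at 0.40 as the called exceptions.

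Clu read 8.89, 8.91 and 8.95 in shGFP, 8.59, 8.65 and 8.62 in shFoxk1 and 8.71, 8.69 and 8.64 in rescue on its brightest probe set. All 6 arrays with the Foxk1 hairpin lay below all 3 controls, while shFoxk1 and rescue overlapped. It fell by 0.30 in shFoxk1 (SE 0.05, limma adjusted p = 0.00428), and this call held in all 18 alternatives, with adjusted p between 0.000741 and 0.0262. Differences on its other probe sets were -0.35, -0.33 and -0.48 in the knockdown (limma adjusted p = 0.0392, 0.0265 and 0.0941 with all probe sets tested). In rescue the probe sets parted. Rescue minus shGFP was -0.24 (adjusted p = 0.0144) on the brightest and -0.35 and -0.52 on the others ending in _x_at, but -0.09 (adjusted p = 0.583 with all tested) on the fourth, which ends in _a_at and read 0.24 above shFoxk1 (adjusted p = 0.204).

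C1s1 encodes C1s, the partner of the unmeasured C1r. Its log2 levels were 4.42, 4.41 and 4.52 in shGFP, 4.56, 4.57 and 4.43 in shFoxk1 and 5.0, 4.63 and 4.93 in rescue. Rescue lay above both other groups, with rescue replicate 2 nearest to them. It was 0.40 higher in rescue than in shGFP (SE 0.09, limma adjusted p = 0.0251) and 0.33 higher than in shFoxk1 (adjusted p = 0.141). The probe set ends in _s_at, its level in shGFP was close to the olfactory receptors' median, and the call was lost without any 1 of the shGFP replicates or of rescue replicates 1 and 3 (adjusted p = 0.0548 to 0.0991). Clu in rescue against shGFP lost its call without shGFP replicate 2 (0.0537) or 3 (0.0642) or rescue replicate 3 (0.0647).

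**Figure D4:**
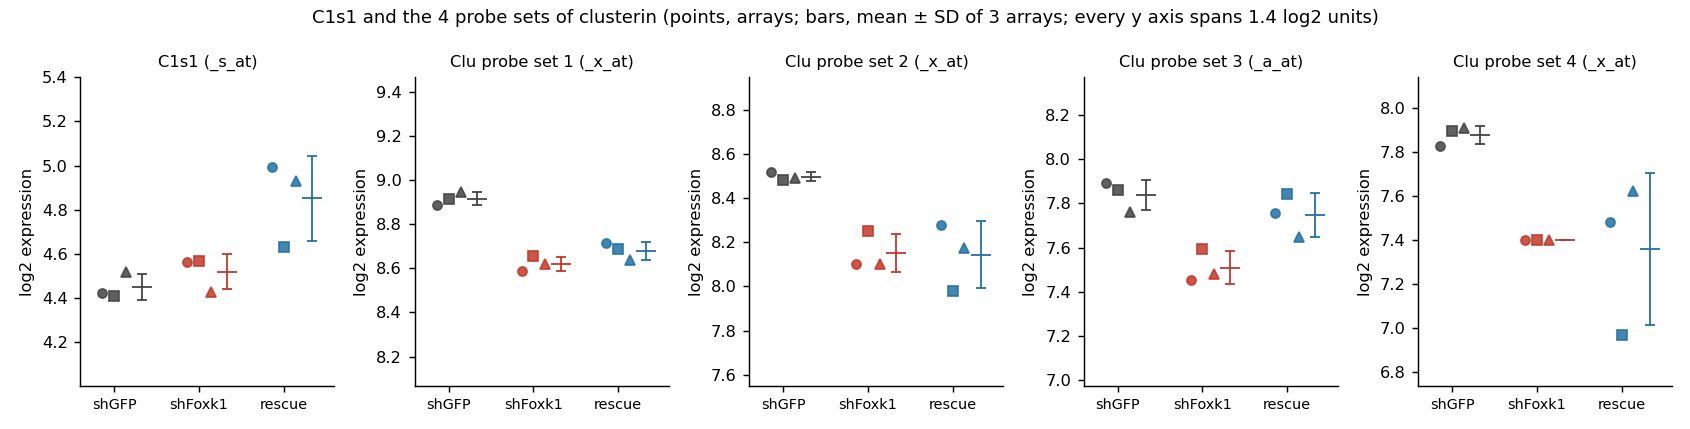
Log2 level (y axis, every panel spanning 1.4 log2 units) of C1s1 and of the 4 probe sets of Clu on the 9 arrays, by group (x axis). Circles, squares and triangles are replicates 1, 2 and 3, and bars are the mean ± SD of 3 arrays. The shGFP arrays of Clu lie above the shFoxk1 arrays in all 4 panels, while its rescue arrays stay low in 3 panels and come near shGFP in the _a_at panel.

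By role, 0 of 15 measured initiation genes, 0 of 3 genes of the alternative route, 0 of 6 terminal genes, 0 of 5 surface inhibitors and 0 of 8 receptors passed in shFoxk1 against shGFP, and 1 of 8 soluble inhibitors did (Clu). Of all genes, 4.24% were called in this comparison. The receptors had the lowest median of these roles, -0.12. C3ar1, the receptor for the C3a fragment, had the lowest difference among them, with levels of 5.99 ± 0.07 in shGFP, 5.78 ± 0.06 in shFoxk1 and 5.93 ± 0.07 in rescue, and a difference of -0.21 (limma adjusted p = 0.0740) that passed with array weights and when arrays were shifted to the same median. Of its dimmer probe sets, 1 differed by -0.10 and the other by -0.06, with overlapping groups. These receptors are known chiefly from white blood cells. Of 10 macrophage markers 3 lay above the olfactory receptors' 95th percentile, and their mean log2 level was 5.83 to 5.84 in shGFP, 5.73 to 5.77 in shFoxk1 and 5.77 to 5.87 in rescue. Ptprc and Adgre1 stood at 4.19 ± 0.08 and 4.41 ± 0.18 in shGFP, about the olfactory median. Csf1r and Cd14, the brightest of the 10, stood at 10.22 ± 0.06 and 8.73 ± 0.05 in shGFP. They fell in shFoxk1 by 0.38 and 0.35 (limma adjusted p = 0.00237 and 0.00256). The part of such cells in the receptor values was not tested.

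The signals known to drive complement transcription were examined beside their targets. Of 23 inducers, receptors and factors, 0 rose, 6 fell and 17 did not pass in shFoxk1 against shGFP, with a median of -0.05. Of all genes, dim ones included, 2.26% were called lower. With genes below the median level of 6.56 left out, 1501 of 10336 genes were called in either direction, beside 876 of 20672 without this filter. All 6 that fell lay above that median, so 2.26% is a low yardstick for them. The NF-kB subunits Relb (-0.50, limma adjusted p = 0.00269), Nfkb2 (-0.36, 0.00971) and Nfkb1 (-0.30, 0.00230) fell, as did Stat3, which relays interleukin 6 (-0.31, 0.00887). The receptors Il6ra (-0.29, 0.0339) and Il1r1 (-0.25, 0.0477) also fell, but as means of their probe sets these were -0.16 (0.0870) and -0.10 (0.307) and did not pass. All 6 are subunits, factors or receptors and not the cytokines themselves. In rescue against shFoxk1 0 of 23 passed, beside 0.953% of all genes, the lowest adjusted p being 0.0518 for Il1r1 at 0.31. In rescue against shGFP, where 5.04% of all genes were called in either direction, 0 rose and 4 fell, namely Relb (-0.43), Stat3 (-0.27), Nfkb1 (-0.24) and the oncostatin M receptor Osmr (-0.38, adjusted p = 0.0471). Leaving out 1 array ended the call of Il6ra in 5 cases (any shGFP array, shFoxk1 replicate 1 or 3; adjusted p = 0.0756 to 0.112). It ended that of Il1r1 in 7 (all but rescue replicates 2 and 3; 0.0581 to 0.167) and that of Osmr in 7 (all but shFoxk1 replicate 3 and rescue replicate 1; 0.0645 to 0.153). The rescue call of Stat3 was lost without shGFP replicate 2 (0.0817) or 3 (0.0719) or rescue replicate 2 (0.0576), and averaging its probe sets gave -0.16 (0.0545). In the comparison in which these 6 fell, the 5 complement genes lay between -0.06 and 0.19.

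**Figure D5:**
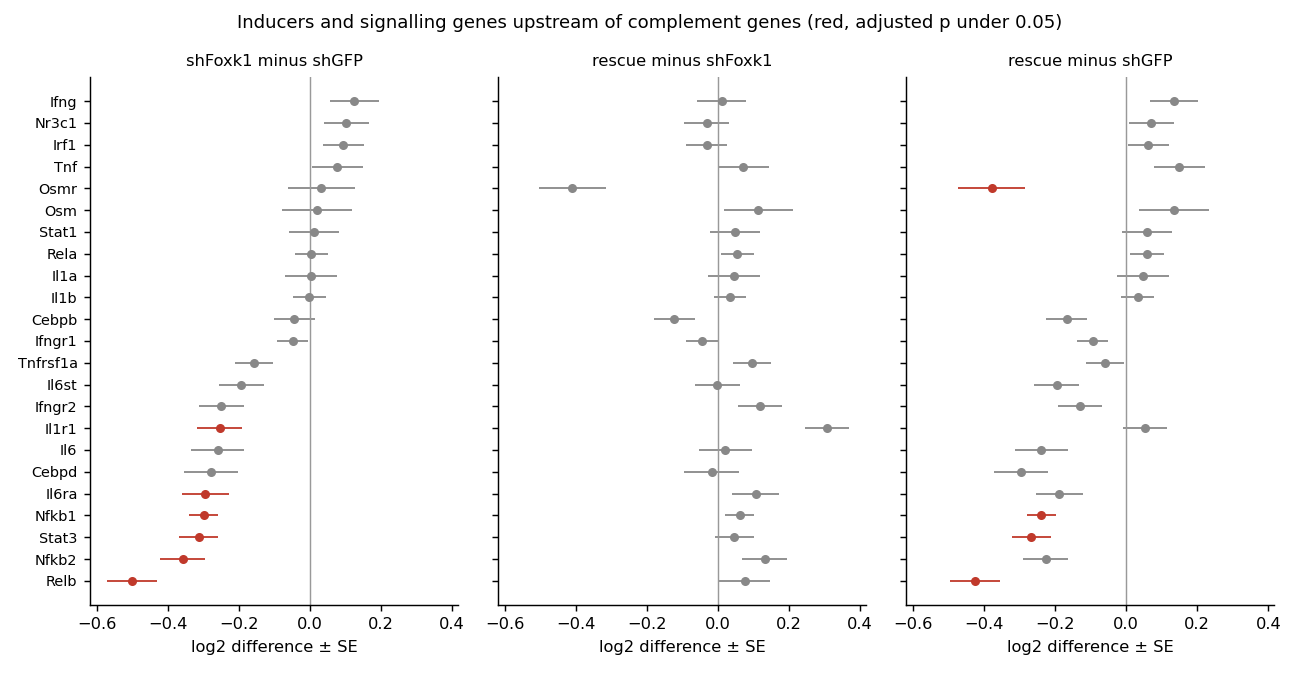
Log2 difference ± SE (x axis) of 23 inducers and signalling genes (y axis, ordered by the difference of shFoxk1 from shGFP) in the 3 comparisons, with red for an adjusted p under 0.05. Relb at -0.50 and 5 further genes are red in shFoxk1 minus shGFP, 0 in rescue minus shFoxk1 and 4 in rescue minus shGFP.

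Other genes that share inducers with complement gave mixed values. Of 16 secreted acute phase genes, Ptx3, a pattern receptor that can bind C1q, rose by 1.54 in shFoxk1 (limma adjusted p = 5.72e-05), and Saa3, a serum amyloid known as a target of NF-kB and C/EBP, fell by 0.50 (0.000916), with 14 not past the test, beside 4.24% of all genes called. Rescue minus shFoxk1 was 0.43 for the copper carrier Cp (0.00646), 0.30 for Saa3 (0.0446) and -0.62 for Ptx3 (0.0396). All 3 passed the test, beside 0.953% of all genes. In rescue against shGFP, where 5.04% of all genes were called, Ptx3 (0.92) and Cp (0.42) rose and Serpina3g (-0.33) fell. The mean of Serpina3g over 9 arrays, 5.26, lay below the olfactory receptors' 95th percentile of 5.62. As means of their probe sets, Ptx3 was 0.84, -0.36 and 0.48 in the 3 comparisons and Cp was 0.26 in rescue minus shGFP, all still past the test. Of 17 genes that respond to interferon gamma, the chemokine gene Cxcl10 fell by 0.39 in shFoxk1 (0.000826) and 16 did not pass. In rescue against shGFP, Cxcl10 (-0.40) and Irgm1 (-0.27) fell and Ciita (0.29) rose, beside the same 5.04% of all genes. Ciita, with a mean of 4.99 over 9 arrays, also lay below 5.62. The calls in rescue against shFoxk1 were lost for Saa3 without any 1 array but shFoxk1 replicate 3 (limma adjusted p = 0.0730 to 0.155) and for Ptx3 without shGFP replicate 2, any shFoxk1 array or rescue replicate 2 or 3 (0.0514 to 0.164). Averaging the probe sets of Ciita gave 0.15 (0.115). Irgm1 lost its call without any 1 shGFP array or rescue replicate 2 or 3 (0.0519 to 0.105), and Ciita without any 1 array but rescue replicate 3 (0.0559 to 0.146). Saa3 and C3 both stood higher in rescue than in shFoxk1, by 0.30 and by 0.20, with Saa3 past the test and C3 not.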

How the data were processed

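Total RNA of 9 MEF samples was biotin-labelled and hybridised to arrays with Affymetrix-style probe set names, 3 arrays for each of 3 groups taken from the labels. The authors deposited log2 values per probe set, which the submitters' processing notes credit to RMA and affy, without versions. RMA equalises the arrays' distributions, so differences in total RNA are removed. The authors' deposited tables give a log2 fold change, p-value and adjusted p-value and, per the file headers, t and B, each a score, for 2 comparisons; their symbols and identifiers were used, and their statistics only as a check.

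Of the probe sets, 38089 carry a symbol, brought up to date through a RefSeq gene table (GRCm38.p6, names only). Group means were fitted with limma 3.58.1 in R 4.3.3 over all 9 arrays (6 residual and 4.46 prior degrees of freedom), on the brightest probe set of 20672 genes. Tests were two-sided, Benjamini-Hochberg adjusted over all genes and called under 0.05, with no filter on low values. The median SE was 0.0642, limited by the number of arrays. Scripts were tested on simulated data. Samples with the same number deviated together at r of 0.06 to 0.23, and samples with different numbers at -0.18 to 0.05. By the rule used, r over 0.1 in all 3 pairs, only shFoxk1 and rescue count as paired. The same-number pairs with shGFP also lay above every pair of different numbers, so the number may mark a block in all 3 groups. The main fit has no term for the number, and the replicate block given below adds one.

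Named were the listed complement genes and Foxk1, called genes of the wider complement list, and at most 4 called genes per other list and comparison, by smallest adjusted p. Il6ra, Il1r1, C3ar1, Neu1, Adipoq, Lpl, Epcam, Ptprc and Adgre1 were added after their values were seen. The olfactory receptor reference and the motif search were also added after values were seen. The complement genes and lists were chosen with earlier results of these data known.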

Additional observations from a re-analysis of the deposited data

How the results depend on the processing

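Calls of the 5 genes stayed at 0 in shFoxk1 against shGFP and in rescue against shFoxk1 under all 18 alternatives. In rescue against shGFP the count was 1, C3 at 0.26, with the filter on low values, with the mean of all probe sets and with trend and robust variances, and 0 under the other 15. The filter leaves out Cfd and Serping1 by its construction. C2 turned to -0.0754 in shFoxk1 minus shGFP with _x_at and _s_at probe sets left out. In rescue minus shFoxk1, C2 was 0.0426 with the mean of its probe sets, 0.10 without _x_at and _s_at probe sets and -0.11 to 0.00155 with each array left out in turn. In the same comparison Cfd was -0.0720 with array weights, -0.0125 with arrays shifted to the same median and -0.0647 to 0.0735 with an array left out, and Serping1 was -0.14 to 0.0206. Serping1 was -0.11 to 0.0497 in shFoxk1 minus shGFP, and Foxk1 was -0.0523 to 0.11 in rescue minus shFoxk1, with an array left out. None of these differences of C2, Cfd, Serping1 and Foxk1 was called under any setting, and the cause was not tested. The smooth muscle marker Acta2, higher on an _s_at probe set, was -0.125 in shFoxk1 and -0.193 in rescue against shGFP with such probe sets left out. The wider list had 2 calls in shFoxk1 against shGFP (Clu and C3ar1) with array weights and with arrays shifted to the same median. It had 1 call (C1s1) in rescue against shFoxk1 with array weights, and 0 to 1 with an array left out. In rescue against shGFP, with 2 calls in the report, it had 1 with only the 6 arrays compared, 0 without _x_at and _s_at probe sets, and 0 to 2 with an array left out. It had 3 with the replicate block (C1s1, Fcna and Clu), and 3 with the mean of all probe sets and with trend and robust variances (C1s1, C3 and Clu). Fcna was also called without rescue replicate 3. The replicate block changed 0 calls of the 5 genes and, in the wider list, added Fcna alone, and C3 in rescue minus shGFP was 0.26 with it. Cfd and Serping1, close to unspecific signal, limit what the arrays show of them.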

Other observations

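Of 6 smooth muscle markers, 2 passed in shFoxk1 against shGFP (Tagln and Acta2, both higher) and 4 did not, beside 4.24% of all genes called. Their median was 0.08, and Acta2 turned to -0.125 without _s_at probe sets. Tagln, an actin-binding protein of contractile cells, stood at 8.89 ± 0.06 in shGFP, 9.76 ± 0.11 in shFoxk1 and 9.05 ± 0.03 in rescue. It rose by 0.87 in shFoxk1 (SE 0.06, limma adjusted p = 4.03e-05) and fell by 0.71 from there in rescue (adjusted p = 0.00078). The fibroblast matrix gene Dcn fell by 0.28 in shFoxk1 (limma adjusted p = 0.0049), a call lost as the mean of its probe sets (-0.15, 0.103), and stood 0.67 higher in rescue than in shFoxk1 (adjusted p = 0.000135). C3 was higher in rescue than in both other groups, as Dcn was, but its own difference did not pass the test, and no relation between them was tested.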
